A study of Mus musculus with 12 samples.

Results

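The mitochondrial respiratory chain consists of NADH dehydrogenase (complex I), succinate dehydrogenase (complex II), the cytochrome bc1 complex (complex III) and cytochrome c oxidase (complex IV), together with ATP synthase (complex V). Its nuclear-encoded genes were taken by symbol, as every gene of the array annotation whose name starts with Ndufa, Ndufb, Ndufc, Ndufs, Ndufv, Sdh, Uqcr, Cox4, Cox5, Cox6, Cox7, Cox8 or Atp5. The rule matched 94 of 18194 genes on the array. Of these, 85 reached a log2 value of 4 on 2 arrays or more and belong to the 9307 genes tested. Each was read from the probe set with the highest mean. They divide into 41 genes of complex I, 8 of complex II, 8 of complex III, 11 of complex IV and 17 of complex V. The name prefixes also take in 12 assembly factors, 8 of complex I and 4 of complex II, which help to build a complex and are not part of the finished enzyme. Cox7a2l, counted with complex IV, was classed as a supercomplex factor.

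The study deleted Bcl6, which encodes a transcriptional repressor, in the B lineage and measured RNA of sorted splenic B cells on Affymetrix arrays. Follicular (FO) B cells recirculate through the follicles of lymphoid organs and were sorted as B220+AA4.1-CD21intCD23+ cells. Marginal zone (MZ) B cells reside at the border of the splenic white pulp and were sorted as CD21highCD23low cells. All mice were C57BL/6 females of 10 weeks and carried 1 mb1-cre allele, so the controls expressed Cre as well. Wild-type (WT) mice had no floxed Bcl6 allele, heterozygous (HET) mice were Bcl6(+/flox), and homozygous (HOM) mice were Bcl6(flox/flox). Cre is driven by the mb1 locus, which is known to be active in B cells from early stages on. Other cells were removed before sorting with antibodies that included CD11b, Gr-1, F4/80 and CD3. Each of the 6 groups of cell type and genotype had 2 arrays. Whether the arrays of a group stand for separate mice is not given in the labels, and p-values therefore measure only how far these arrays spread, possibly for technical reasons.

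Electrons enter the chain from NADH at complex I and from succinate at complex II. They pass through complex III and cytochrome c to oxygen at complex IV, and the proton gradient built on the way drives complex V. A few subunits of complexes I, III, IV and V are encoded by mitochondrial DNA and fall outside the rule. The nuclear genes are expressed in nearly all cells, and several are known targets of the transcription factors NRF1, GABP and YY1.

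The chain genes varied little. Over the 12 arrays the difference between a gene's highest and lowest log2 value had a median of 0.548 over the 85 genes, against 1.17 over all tested genes. It was below 1 log2 unit, a 2-fold range, for 79 of the 85 (92.9%). The same held for 39.6% of all tested genes and for 59.2% of the 2583 tested genes with a mean log2 value of 10 or more, a class that holds 70 of the chain genes. The narrowest range was 0.24, in Ndufs3, a subunit of the electron input arm of complex I. The widest were 1.96 in Cox7c, a small subunit of complex IV, and 1.73 in Ndufaf1, an assembly factor of complex I.

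The 9 genes that did not pass the filter were Cox4i2, Cox6a2, Cox6b2, Cox7a1, Cox7b2, Cox8b, Cox8c, Ndufa4l2 and Ndufb4. The first 8 are isoforms known from other tissues or conditions, such as heart and skeletal muscle (Cox6a2, Cox7a1, Cox8b) and testis (Cox6b2, Cox7b2, Cox8c). Their log2 values were 2.21 to 3.15 on all arrays, close to the minimum of the data set. The isoforms Cox4i1, Cox6a1, Cox6b1, Cox7a2 and Cox8a passed the filter. Ndufb4 encodes a subunit of complex I found in all tissues, and its probe set read 2.21 to 2.33. Its other probe sets are shared with Ndufb4b and Ndufb4c and were not used, so this low reading says nothing about the gene. A further 8 names that fit the rule, among them Ndufa11 and Ndufs6, occurred only on probe sets with several symbols and were left out.

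The targeted gene was measured by a pair of Bcl6 probe sets that moved in opposite directions, and the part of the gene that was deleted is not given in the labels. The weaker probe set read 4.94 and 5.61 on the FO WT arrays, 4.93 and 4.86 on FO HET, and 2.36 and 2.48 on FO HOM. On all MZ arrays it lay at the minimum of 2.22. The brighter probe set read 11.95 and 11.65 on FO WT against 12.7 and 12.88 on FO HOM, and 8.29 and 8.81 on MZ WT against 9.95 and 10.37 on MZ HOM. The MZ WT replicate 1 array stood apart in RNA quality: its Gapdh 3' probe set exceeded the 5' probe set by 6.903 log2 units, against -0.203 to 0.629 on the other 11. Markers of MZ cells averaged 7.21 to 7.65 on FO arrays and 11.3 to 12.3 on MZ arrays, with 8 of 8 genes measured. The lowest log2 value was 2.21262 over the FO arrays and 2.21924 over the MZ arrays, so the cell types may have been normalized in 2 separate runs. Such a difference and the cell type cannot be told apart. In these bulk samples, fewer cells of a type and less RNA per cell cannot be told apart either.

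Between MZ and FO cells, 9 of the 85 chain genes changed (6 arrays each, limma adjusted p under 0.05 over all tested genes, averaged over the 3 genotypes). On the values as deposited, 4 were higher in MZ cells, against 16.2% of all tested genes, and 5 were lower, against 28.2%. With the arrays shifted to a common median the split was 23 higher and 1 lower, against 22.3% and 18.7% of all tested genes. With quantile normalization over all arrays it was 30 higher and none lower, against 20.6% and 19.6%. Among genes with a mean of 10 or more, 40.2% of all tested genes were called in either direction, against 6 of the 70 chain genes. The median change of the chain genes was -0.0178, that of all tested genes -0.167. The common median moved the median of all tested genes to -0.00917 and that of the chain genes to 0.14, so relative to all genes the chain genes lay 0.15 higher on both scales (0.219 with quantile normalization).

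**Figure D1:**
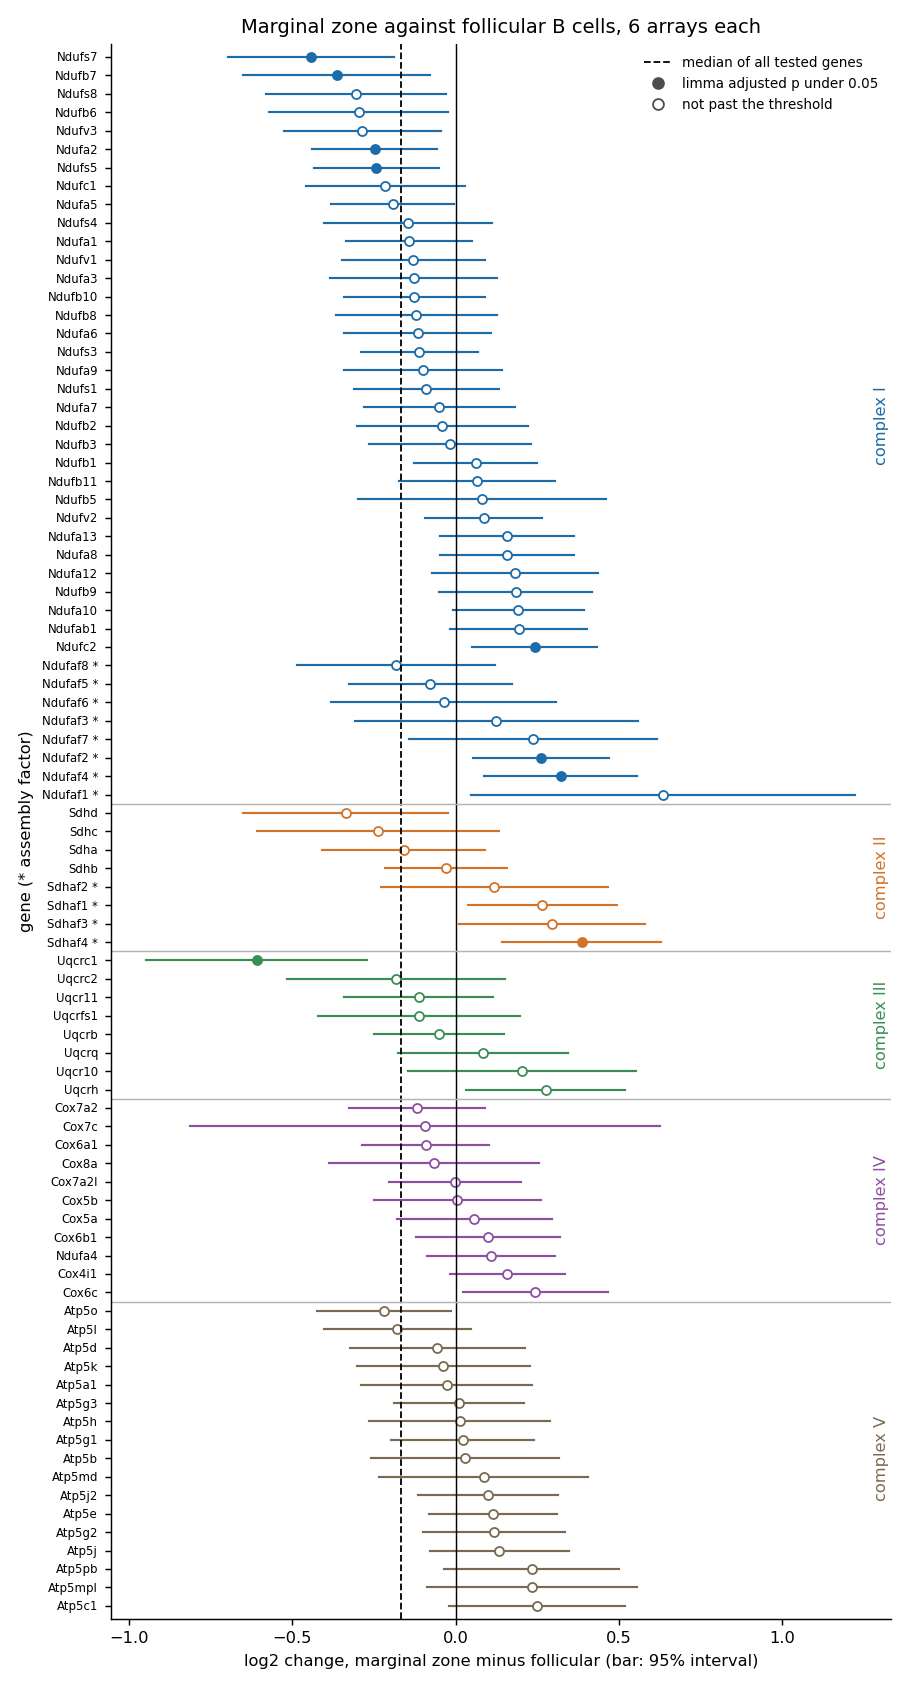
Log2 change between marginal zone and follicular B cells for each of the 85 genes, by complex, as deposited; points are limma estimates over 6 arrays each, bars 95% intervals, filled points passed the adjusted threshold, and stars mark assembly factors. Uqcrc1 is lowest at -0.61 and Ndufaf1 highest at 0.64 with a wide interval. The dashed line is the median of all tested genes at -0.167. On a common median 23 genes were called higher and 1 lower, against 22.3% and 18.7% of all tested genes.

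Uqcrc1, a core protein of complex III on its matrix side, was lower in MZ cells. On FO arrays it read 10.52 and 11.0 in WT, 10.63 and 10.95 in HET and 10.79 and 10.91 in HOM. On MZ arrays it read 9.69 and 10.16 in WT, 9.84 and 10.31 in HET and 10.7 and 10.45 in HOM. All MZ WT and HET arrays lay below all FO arrays, while the higher MZ HOM array lay within the FO range. The averaged change was -0.61 ± 0.15 (SE, limma adjusted p = 0.0101). It passed without any single array (adjusted p 0.00707 to 0.0317) and on a common median (-0.45), and did not pass with quantile normalization (-0.40, adjusted p = 0.0559). By genotype the change was -0.84 ± 0.26 in WT (limma adjusted p = 0.0485), -0.72 ± 0.26 in HET (0.0789) and -0.28 ± 0.26 in HOM (0.523). Of the 12 arrays left out in turn, only FO WT replicate 1 and MZ WT replicate 2 left the WT call in place, and the adjusted p rose to as much as 0.228.

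Ndufs7, which carries the last iron-sulphur cluster before ubiquinone in complex I, was also lower on the deposited scale. Its FO arrays read 12.04 and 11.91 in WT, 11.73 and 12.14 in HET and 11.73 and 11.94 in HOM. The MZ arrays read 11.3 and 11.55 in WT, 11.66 and 11.46 in HET and 11.34 and 11.53 in HOM. All 6 MZ arrays lay below all 6 FO arrays. The change was -0.44 ± 0.11 (limma adjusted p = 0.0119). A further probe set of the gene gave -0.43. The change kept its sign on a common median, at -0.28, and with quantile normalization, at -0.22, but passed the threshold on neither (adjusted p = 0.0805 and 0.168).

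Sdhaf4, an assembly factor that protects the flavoprotein subunit of complex II before the enzyme is put together, was higher in MZ cells. FO arrays read 9.79 and 9.64 in WT, 9.52 and 9.8 in HET and 9.5 and 9.46 in HOM. MZ arrays read 10.18 and 9.87 in WT, 10.29 and 9.94 in HET and 9.92 and 9.83 in HOM. All MZ arrays lay above all FO arrays. The change was 0.39 ± 0.11 (limma adjusted p = 0.018), 0.54 on a common median and 0.58 with quantile normalization. Among the 9 genes it was the only one called under all 20 alternatives run.

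Ndufaf4, an assembly factor of complex I, read 9.62 and 9.28 on FO WT arrays, 9.67 and 10.03 on FO HET and 9.95 and 9.88 on FO HOM. Its MZ arrays lay close together, between 9.98 and 10.12. The FO WT arrays were the lowest of the 12 along with the first FO HET array, and the higher FO HET array overlapped with the MZ arrays. The averaged change was 0.32 ± 0.10 (limma adjusted p = 0.0332), with 0.62 ± 0.18 in WT (0.0391), 0.20 in HET and 0.14 in HOM. Its second probe set gave an averaged change of 0.09. With the mean of its probe sets neither call was made, and the WT call was also lost with array weights and with only the WT arrays. Leaving out single arrays ended the averaged call in 10 of 12 cases, all but FO WT replicate 1 and FO HET replicate 2 (adjusted p up to 0.0821). It ended the WT call in 9 of 12, all but FO WT replicate 1 and both FO HET arrays (up to 0.194).

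**Figure D2:**
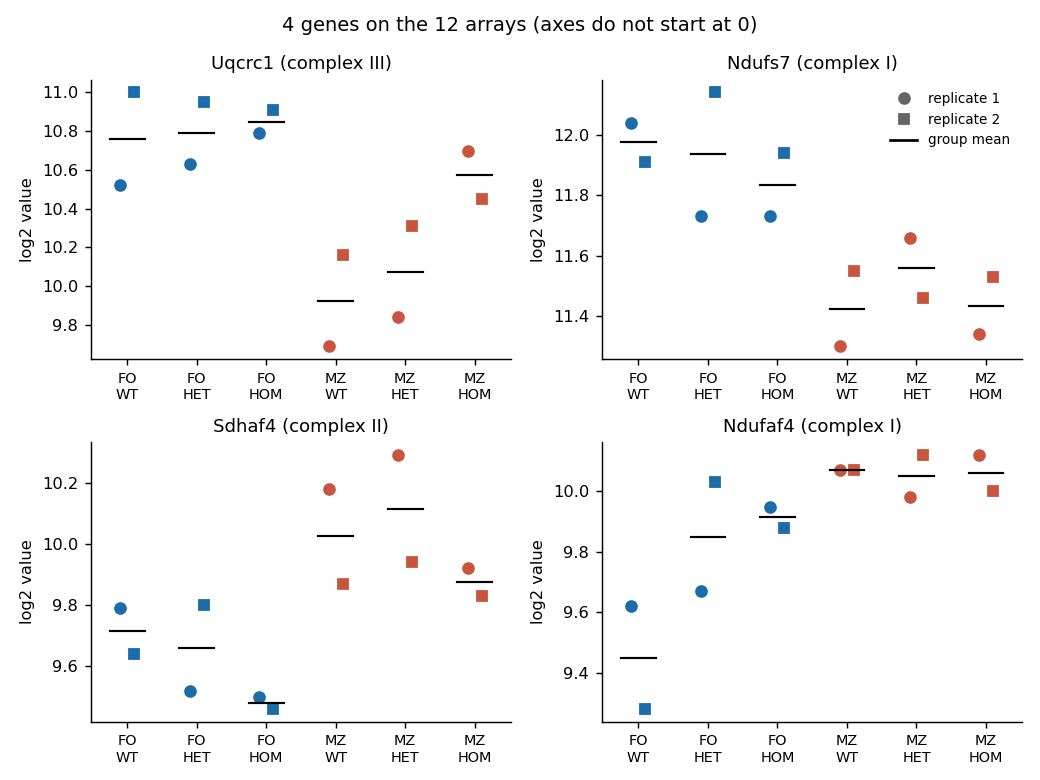
Log2 values of Uqcrc1, Ndufs7, Sdhaf4 and Ndufaf4 on each of the 12 arrays, with bars at the mean of the 2 arrays of a group; blue is follicular and red marginal zone. All MZ arrays lie below the FO arrays for Ndufs7 and above them for Sdhaf4, while the higher Uqcrc1 array of MZ HOM (10.7) reaches into the FO range.

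The other 5 called genes all belong to complex I. Ndufb7 is a small subunit of the membrane arm that is imported into the intermembrane space. It ranged from 10.94 through a median of 11.03 to 11.36 on FO arrays and from 10.4 through 10.71 to 11.01 on MZ arrays, which overlap. Its change was -0.36 ± 0.13 (limma adjusted p = 0.0432). Ndufa2, an accessory subunit of the matrix arm, ranged from 12.61 through 12.67 to 12.81 on FO and from 12.34 through 12.44 to 12.54 on MZ arrays. It changed by -0.25 ± 0.08 (adjusted p = 0.0408). Ndufs5, an accessory subunit on the intermembrane side, ranged from 10.29 through 10.4 to 10.61 on FO and from 10.11 through 10.18 to 10.26 on MZ arrays. The change was -0.24 ± 0.08 (adjusted p = 0.0448), and the MZ and FO arrays of Ndufa2 and Ndufs5 did not overlap. These 3 calls were not made on a common median or with quantile normalization, where the changes shrank to between -0.21 (Ndufb7, common median) and -0.0035 (Ndufa2, quantile).

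Ndufc2, an accessory subunit of the membrane arm, and Ndufaf2, an assembly factor of complex I, were higher in MZ cells. Ndufc2 ranged from 11.71 through 11.77 to 11.92 on FO arrays and from 11.86 through 12.01 to 12.26 on MZ arrays. Its change was 0.24 ± 0.08 (limma adjusted p = 0.0442), and further probe sets gave 0.32 and 0.30. Ndufaf2 ranged from 7.77 through 8.03 to 8.08 on FO and from 8.02 through 8.2 to 8.53 on MZ arrays, with a change of 0.26 ± 0.09 (adjusted p = 0.0454). Both sets of arrays overlap. On a common median both changes grew, to 0.40 and 0.42, and both stayed past the threshold. Most of these calls ended when any 1 array was left out. The exceptions were FO WT 2, MZ WT 1, MZ HET 1 and MZ HOM 1 for Ndufb7 (adjusted p otherwise up to 0.111), and MZ WT 1 and MZ HET 1 for Ndufa2 (up to 0.097). For Ndufs5 it was FO HET 1 (up to 0.111), for Ndufc2 MZ WT 2 and MZ HET 2 (up to 0.11) and for Ndufaf2 MZ WT 2 (up to 0.0993).

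Arrays were also counted instead of the test, on the values as deposited only. All MZ arrays lay above all FO arrays for 2 chain genes, Cox4i1 and Sdhaf4, where 11.4% of all tested genes did so. All MZ arrays lay below all FO arrays for 5, namely Ndufa1, Ndufa2, Ndufa5, Ndufs5 and Ndufs7, where 17% of all tested genes did so. Both counts depend on the scaling of the MZ against the FO arrays and were not repeated on the other scales. Cox4i1, the common form of a regulatory subunit of complex IV, ranged from 13.62 through 13.73 to 13.77 on FO arrays and from 13.78 through 13.89 to 13.96 on MZ arrays. Its change of 0.16 ± 0.08 did not pass (limma adjusted p = 0.129).

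Within single genotypes few chain genes were called between MZ and FO cells. In WT there were the 2 given above, Ndufaf4 and Uqcrc1, where 22.2% of all tested genes were called. In HET and in HOM limma called none, where 23.2% and 19.1% of all tested genes were called. At an unadjusted p under 0.05, 6 chain genes passed in HET (7.06%, against 36.6% of all tested genes) and 1 in HOM (1.18%, against 31.8%). Each of these contrasts compares 2 arrays with 2.

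In complex I the subunits and the assembly factors were counted separately. Of all tested genes 36.6% had a positive change from FO to MZ as deposited. Of the 33 subunits, 11 had a positive change from FO to MZ as deposited, with a median of -0.11, but 24 had one on a common median. Of the 8 assembly factors, 5 had a positive change as deposited (median 0.181) and 7 on a common median. The core subunits besides Ndufs7 did not pass. Ndufs8, which carries a pair of iron-sulphur clusters, had a difference of -0.30 ± 0.12 (limma adjusted p = 0.07), and Ndufs1, Ndufs3, Ndufv1 and Ndufv2 had differences of -0.09, -0.11, -0.13 and 0.09. Ndufaf1 had the highest change of all chain genes, 0.64 ± 0.26 (adjusted p = 0.0753), and its values are given with those of the deletion.

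In complex II the same split was made. Its 4 subunits, the catalytic Sdha and Sdhb and the membrane anchors Sdhc and Sdhd, had changes of -0.16, -0.03, -0.24 and -0.34 as deposited, where 2 of the 4 were positive on a common median. None passed the threshold. The signs of Sdha and Sdhd depended on the probe set. A further probe set gave 0.10 for Sdha, 0.18 for Sdhd and -0.25 for Sdhc, and the weakest of Sdha gave -0.23. Its 4 assembly factors all had positive changes on each of the 3 scales, with a median of 0.28 as deposited and 0.439 on a common median, and only Sdhaf4 passed as deposited. Sdhaf1 and Sdhaf3, which help to insert or protect the iron-sulphur clusters of Sdhb, had differences of 0.26 ± 0.10 (limma adjusted p = 0.0597) and 0.30 ± 0.12 (0.0848). Sdhaf2, which attaches the flavin to Sdha, had a difference of 0.12.

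Together, 9 of the 12 assembly factors had positive changes as deposited (3 called), with a median of 0.25. Of the 73 other genes, the subunits and Cox7a2l, 32 did, with a median of -0.038. Of all tested genes 36.6% were positive as deposited, with 16.2% called higher and 28.2% lower. On a common median the numbers were 11 of 12 (6 called) and 58 of 73 (17 called higher, 1 lower). On that scale 22.3% of all tested genes were called higher and 18.7% lower. Without MZ WT replicate 1, the array with the 3' excess, the medians of the assembly factors and the 73 other genes were 0.216 and -0.0724 as deposited.

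In complex III, 3 of 8 genes had a positive change as deposited and 6 on a common median. Uqcrh, the hinge protein that contacts cytochrome c1, had the highest at 0.28 ± 0.11 (limma adjusted p = 0.0652). Uqcrc2, the other core protein, had a difference of -0.18 and Uqcrfs1, the Rieske iron-sulphur protein, one of -0.11. Complex IV had 6 of 11 positive as deposited and all 11 on a common median. Its changes ran from -0.12 in Cox7a2 to 0.24 in Cox6c (adjusted p = 0.0705), and Cox5a and Cox5b had values of 0.06 and 0.01. In complex V, 12 of 17 were positive as deposited and 15 on a common median. The changes ran from -0.22 in Atp5o, in the peripheral stalk (adjusted p = 0.0791), to 0.25 in Atp5c1, the rotor shaft of the enzyme (0.12). Atp5a1 and Atp5b, which form its catalytic head, had differences of -0.03 and 0.03. No gene of complexes IV and V was called on the deposited scale.

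For 46 of the 85 genes several probe sets passed the filter. All of a gene's probe sets gave the same sign between MZ and FO in 26 of the 46, in 21 for the deletion in FO and in 32 for the deletion in MZ. Of the 9 called genes, those with more than 1 probe set (Ndufs7, Ndufaf4, Ndufc2 and Ndufb7) had the same sign in all.

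**Figure D3:**
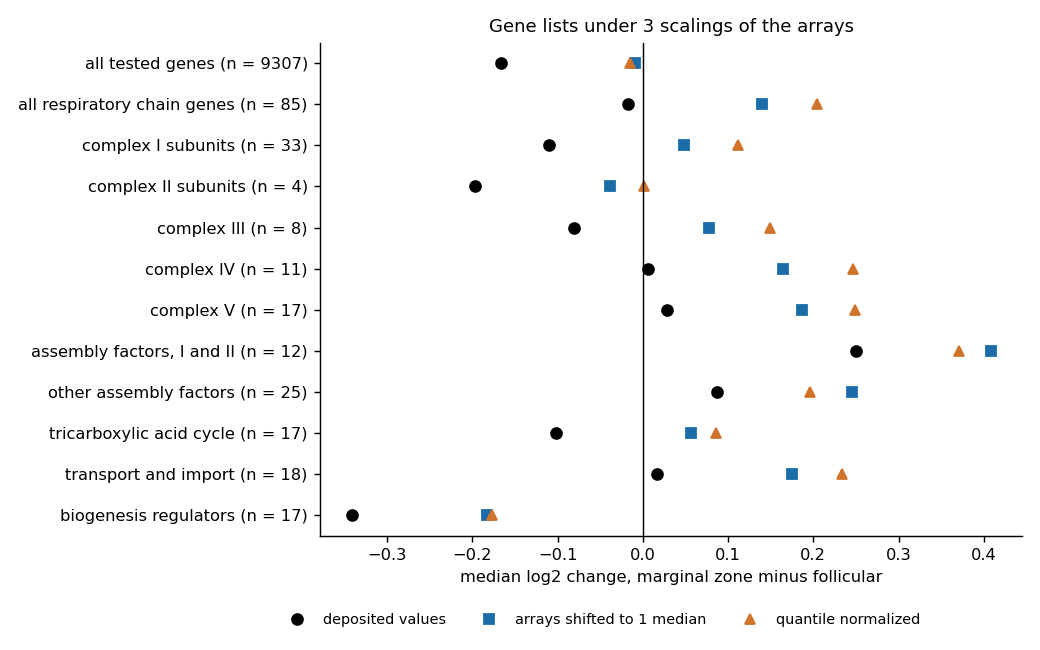
Median log2 change between marginal zone and follicular cells for each gene list under the values as deposited, with arrays shifted to a common median, and with quantile normalization. The chain genes lie at -0.0178, 0.14 and 0.204, so their direction depends on the scaling; the median of the 12 assembly factors is positive on all 3 scales and that of the 17 biogenesis regulators negative on all 3.

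Other mitochondrial lists were set beside the chain on the same contrast. Of all tested genes 16.2% were called higher and 28.2% lower as deposited, and 22.3% and 18.7% on a common median. Of 17 regulators of mitochondrial biogenesis, 9 were lower and 1 higher in MZ cells (median -0.341), and on a common median 5 were lower and 1 higher. Yy1, a zinc finger factor, read 12.03 to 12.32 on FO and 11.52 to 11.91 on MZ arrays, a change of -0.50 ± 0.10 (limma adjusted p = 0.00363), which did not pass with quantile normalization (-0.26, adjusted p = 0.0921). Polg and Polg2, the subunits of the mitochondrial DNA polymerase, changed by -0.68 ± 0.15 (0.00609) and -0.51 ± 0.11 (0.0065). Ppargc1a, a coactivator of these factors, changed by -0.72, but its values of 3.23 to 4.30 lie near the filter, and it did not pass with the mean of its probe sets (-0.32, adjusted p = 0.146). The 1 regulator called higher was Myc, a growth-related factor named here after its value was seen, at 1.51 ± 0.50 (adjusted p = 0.0361). It was kept without 5 of the 12 single arrays and lost without the rest, which were FO WT 1, FO HET 2, FO HOM 2, MZ WT 1, MZ HET 2 and both MZ HOM arrays (adjusted p up to 0.093). Without MZ WT 1 the change was 1.23 (adjusted p = 0.0801).

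Of 18 genes of mitochondrial transport and import, 4 were higher and 2 lower (5 and none on a common median). Among all tested genes 16.2% were higher and 28.2% lower (22.3% and 18.7% on a common median). Slc25a4, an ADP/ATP carrier of the inner membrane, read 11.35 to 12.08 on FO and 12.21 to 12.90 on MZ arrays, a change of 0.98 ± 0.10 (limma adjusted p = 9.73e-05). Vdac1, the outer membrane pore, changed by 0.41 ± 0.09 (0.00562) and Hspe1, the small subunit of the matrix chaperonin, by 0.41 ± 0.10 (0.011). These 3 were called without any single array and on all 3 scales, but with the mean of all probe sets Vdac1 did not pass (0.10, adjusted p = 0.286). Tomm22, an import receptor, was lower on the deposited scale alone of the 3 (-0.30, adjusted p = 0.0156).

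Of 25 assembly factors whose names lie outside the rule, 3 were higher and 1 lower (8 and 1 on a common median). The shares of all tested genes, for this list and the next, were 16.2% and 28.2% (22.3% and 18.7% on a common median). Bcs1l, which inserts the Rieske protein into complex III, changed by 0.56 ± 0.14 (limma adjusted p = 0.0104), Foxred1, a complex I factor, by 0.62 ± 0.17 (0.0159) and Atpaf1, a factor for the head of ATP synthase, by 0.52 ± 0.17 (0.0381). Cox20, a complex IV factor, changed by -0.68 ± 0.09 (0.000412). The Atpaf1 call was kept only without FO WT 1, FO HET 2 or FO HOM 2 (adjusted p otherwise up to 0.0955), the other 3 calls without each of the 12 arrays. Among 17 genes of the tricarboxylic acid cycle and pyruvate dehydrogenase, 1 was higher and 4 lower (3 and 1 on a common median). Dlst, part of the 2-oxoglutarate dehydrogenase complex, changed by 0.53 ± 0.10 (adjusted p = 0.00363). Fh1, fumarase, changed by -0.46 ± 0.10 (0.0074), Pdhb, of pyruvate dehydrogenase, by -0.32 ± 0.09 (0.0157), and Sucla2, of succinyl-CoA ligase, by -0.29 ± 0.10 (0.0429). Dlst did not pass with the mean of its probe sets (0.31, adjusted p = 0.254), nor Fh1 with quantile normalization (-0.23, adjusted p = 0.117). Pdhb and Sucla2 were not called on a common median, the mean of its probe sets turned Pdhb to 0.15, and the Sucla2 call was kept only without FO HET 1, MZ WT 1 or MZ HOM 1 (adjusted p otherwise up to 0.109). The mitochondrial pyrophosphatase Ppa2 was lower as well (-0.42, adjusted p = 0.00909; -0.26 and 0.0748 on a common median). Of 3 genes of cytochrome c and its partners, including Cycs itself (-0.01), none was called by limma, and none passed an unadjusted p of 0.05.

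Promoter sequence was searched because the chain genes are known to share regulators. RefSeq promoters of build GRCm38.p6, from 250 bases before to 50 after the annotated start, were matched for 73 of the 85 genes. Exact matches on both strands were counted for GCATGCGC (NRF1), CCGGAAG (GABPA, the DNA-binding subunit of GABP), AAGATGGC (YY1) and TTCCTAGAA (BCL6). The first is nearly its own reverse complement, so a site can count on both strands. NRF1 matches were present in 11 of the 73 promoters (15.1%), in 3.05% of all 27025 genes with a promoter and in 6.73% of the tested genes. GABPA matches were present in 22 (30.1%, against 9.93% and 23.5%) and YY1 matches in 10 (13.7%, against 3.19% and 6.16%). Any of the 3 was present in 36 (49.3%, against 14.9% and 32.9%). The BCL6 letters were in none of the 73, in 0.474% of all promoters and in 0.365% of those of the tested genes. At such low shares no match among 73 is the likely outcome for any genes, so this count says nothing about BCL6 sites.

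Promoter stretches or sites of 4 of the called genes that hold a match are shown, with the match in capitals, 5' to 3' on the strand of the gene. The first pair are the 120 bases before the annotated start: Ndufaf4, whose NRF1 match lies 113 to 104 bases before the start, with a further one 2 to 9 bases from it (not shown) (chr4:24897963-24898082, + strand), and Ndufb7, whose GABPA match lies 20 to 14 bases before it (chr8:83566638-83566757, + strand). The second pair are short sites just after the annotated start: Uqcrc1, with an NRF1 match 31 to 40 bases from the start (chr9:108936669-108936696, + strand), and Ndufs7, with a YY1 match 25 to 32 bases from it (chr10:80249463-80249490, + strand).
Ndufaf4: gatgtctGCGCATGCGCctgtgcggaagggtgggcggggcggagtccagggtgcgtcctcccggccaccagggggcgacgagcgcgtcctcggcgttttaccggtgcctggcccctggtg
Ndufb7: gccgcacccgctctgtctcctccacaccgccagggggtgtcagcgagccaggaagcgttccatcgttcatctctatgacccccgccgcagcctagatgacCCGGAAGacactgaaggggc
Uqcrc1: ctccgctctGCGCATGCGCagcgcggct
Ndufs7: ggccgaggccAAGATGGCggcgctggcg

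The letters matched are the same in Ndufaf4, which was higher in MZ cells, and in Uqcrc1, which was lower. Sdhaf4, Ndufaf2, Ndufc2 and Ndufs5 held none of the 3 motifs in their windows. Of the factors, Nrf1 changed by -0.61 ± 0.17 between MZ and FO cells (limma adjusted p = 0.0213), Gabpb1, the partner of Gabpa, by -0.79 ± 0.27 (0.0405). Gabpa, with -0.18 ± 0.09 (0.16), did not pass. On a common median Nrf1 and Gabpb1 did not pass (adjusted p = 0.0553 and 0.0793). The Nrf1 call also ended without replicate 1 of FO HET, FO HOM, MZ HET or MZ HOM (up to 0.0565). The Gabpb1 call ended without 8 of the 12 single arrays, all but FO WT 1, both MZ WT arrays and MZ HOM 1 (up to 0.102). A match is a description of letters and does not show binding.

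Deletion of Bcl6 was compared with WT within each cell type. In FO cells limma called none of the 85 chain genes in HOM against WT, where 0.43% of all tested genes were called, and 1 chain gene passed an unadjusted p of 0.05 (1.18%, against 6.97% of all tested genes). In MZ cells limma called none, where 0.0645% of all tested genes were called, and 2 passed an unadjusted p of 0.05 (2.35%, against 6.08%). For the average over both cell types limma called none, where 0.462% of all tested genes were called, and 2 passed unadjusted (2.35%, against 9.07%). For the difference of the deletion change between the cell types limma called none, where 0.0107% of all tested genes were called, and none passed unadjusted, against 3.74% of all tested genes. A single floxed allele gave no call and no gene at an unadjusted p of 0.05 in FO (0% of all tested genes called, 1.98% unadjusted) or in MZ cells (0.0107%, 3.08% unadjusted).

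The intervals show what size of change these arrays can bound. In FO cells the 95% interval of the HOM change lay within 1 log2 unit of 0 for 80 of the 85 genes (94.1%, against 66.0% of all tested genes), and within 0.5 for 41. In MZ cells it lay within 1 log2 unit for 80 (94.1%, against 65.4%) and within 0.5 for 40. For the average of both it was 82 (96.5%, against 82.5%) and 66. The median change of the chain genes was 0.00779 in FO (-0.00485 on a common median) and 0.0565 in MZ, against 0 and -0.0763 for all tested genes.

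**Figure D4:**
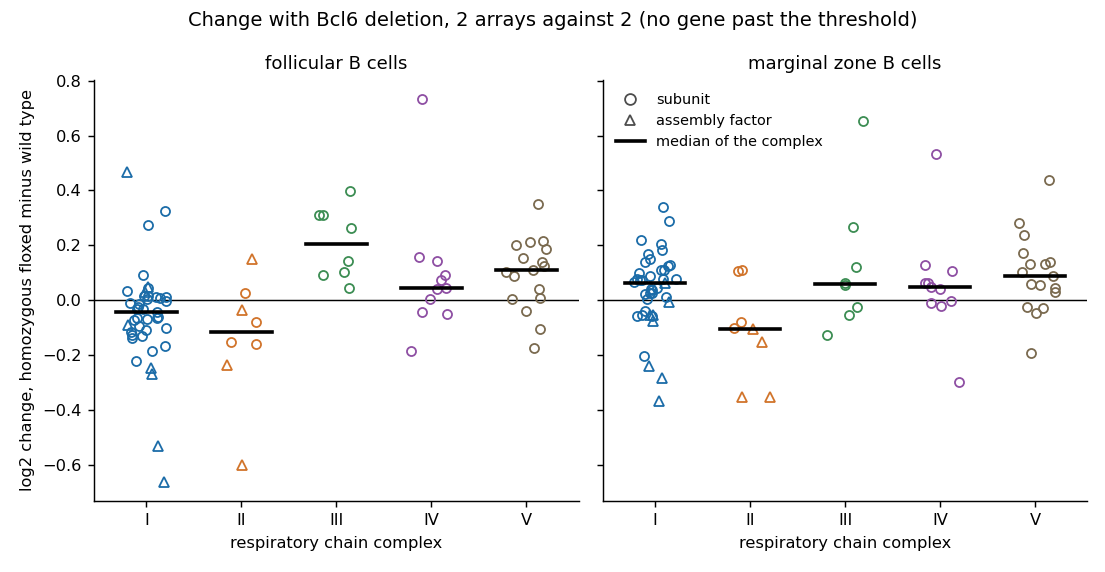
Log2 change between Bcl6(flox/flox) and wild-type arrays for each of the 85 genes, by complex, in follicular (left) and marginal zone cells (right), 2 arrays against 2. Circles are subunits and Cox7a2l, triangles assembly factors and bars the median of a complex. No gene passed the adjusted threshold. All 8 complex III genes are above 0 in follicular cells (7 without FO WT 1, FO WT 2 or FO HOM 2), where 49.4% of all tested genes are. In marginal zone cells 11 of 12 assembly factors are below 0 as deposited (8 on a common median). Of all tested genes only 38.9% are above 0 there as deposited.

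No gene of any complex was called in FO cells. Of all tested genes 49.4% had a positive HOM change there as deposited. All 8 complex III genes had a positive HOM change, on each of the 3 scales, with a median of 0.204, but the count was 7 of 8 without FO WT 1 (Uqcrc1 not positive), FO WT 2 or FO HOM 2 (Uqcrc2 not positive, at -0.26 and -0.0020). Of 17 complex V genes, 14 were positive (12 on a common median, and 12 without FO WT 1, FO WT 2 or FO HOM 1), with a median of 0.108, which was 0.0259 without FO WT 1 and 0.213 without FO WT 2. In complex I, 14 of 41 were positive (10 on a common median) and in complex II 2 of 8 (5 without FO WT 2). Uqcr10, a small subunit of complex III, had the highest change in its complex, 0.40, with 9.53 and 9.97 in FO WT, 9.93 and 9.99 in FO HET and 10.27 and 10.02 in FO HOM. Uqcrfs1 read 11.09 and 11.1 in FO WT, 11.39 and 11.28 in FO HET and 11.49 and 11.32 in FO HOM, a change of 0.31 ± 0.23 (limma adjusted p = 0.942). In both genes the HOM arrays lay above the WT arrays. With 2 arrays against 2 this often happens without any change, and its share over all tested genes was not counted. In MZ cells the same genes spread more within WT, where Uqcr10 read 10.69 and 9.9 and Uqcrfs1 11.64 and 10.94.

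The chain gene with an unadjusted p under 0.05 in FO was Ndufaf4, with a change of 0.47 ± 0.18 (limma adjusted p = 0.594). Ndufaf3, an assembly factor of complex I, had the lowest change, -0.66 ± 0.33 (adjusted p = 0.809). It read 8.93 and 8.79 in FO WT, 7.97 and 9.05 in FO HET and 7.93 and 8.47 in FO HOM. Ndufaf1 read 9.27 and 8.69, 7.92 and 9.0, and 7.97 and 8.92 in the same order, and Sdhaf2 9.79 and 9.74, 9.25 and 9.85, and 8.92 and 9.4. All 3 were lowest on the first arrays of FO HET and FO HOM. On these arrays the mean log2 value of 6 measured neutrophil markers was 4.58 and 6.29, against 2.29 to 2.31 on the other FO arrays. It was also raised on MZ WT replicate 1 and MZ HOM replicate 1, at 5.28 and 4.48, and 2 of the 6 markers were under 4 on every array of the series. The part of other cells in these values was not tested.

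In MZ cells Uqcrc1 had the highest HOM change, 0.65 ± 0.26 (limma adjusted p = 0.801), with the array values given above. Atp5g2, which encodes the c ring of ATP synthase, was the other gene that passed unadjusted, at 0.44 ± 0.16 (limma adjusted p = 0.801). It read 11.79 and 11.96 in MZ WT, 12.09 and 12.06 in MZ HET and 12.37 and 12.26 in MZ HOM. In FO cells it read 11.68 and 12.07 in WT, 11.96 and 11.96 in HET and 12.11 and 12.06 in HOM, a change of 0.21. Neither the MZ change of Atp5g2 nor that of Uqcrc1 passed adjustment over all genes.

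The lowest HOM difference in MZ cells was that of Ndufaf3, -0.37 ± 0.33 (limma adjusted p = 0.852), with 8.57 and 8.84 in WT and 8.3 and 8.38 in HOM. Cox8a, a small subunit of complex IV, had a difference of 0.53 ± 0.24 (limma adjusted p = 0.801), with 10.3 and 10.7 in WT and 11.32 and 10.74 in HOM, and the mean of its probe sets turned it to -0.05. Cox7c had a difference of -0.30 in MZ and of 0.73 ± 0.54 in FO (adjusted p = 0.941). It read 9.24 and 9.81 in FO WT, 10.47 and 9.64 in FO HET and 10.75 and 9.77 in FO HOM. In MZ it read 10.96 and 9.58 in WT, 9.0 and 9.63 in HET and 10.31 and 9.63 in HOM. The replicate 2 arrays of Cox7c all lay between 9.58 and 9.81, and the spread came from the replicate 1 arrays.

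On the deposited scale, the sign of the chain as a whole in MZ cells turned on the WT arrays. As deposited 56 of 85 genes had a positive HOM change (71 on a common median). This was 65.9%, against 38.9% of all tested genes. Without MZ WT replicate 1 the median was 0.149 and 71 genes were positive, and without MZ WT replicate 2 it was -0.0385 and 32 were positive. Of the assembly factors 11 of 12 were negative as deposited, 8 of 12 on a common median and 7 of 12 without MZ WT replicate 1. The median of all tested genes was also below 0 as deposited, at -0.0763. Relative to the median of all tested genes on the same array, the chain median was 0.0657 and -0.0375 on MZ WT replicates 1 and 2. On the MZ HOM arrays it was 0.2238 and 0.0618. Sdhaf1 had a difference of -0.35, with 9.71 and 9.8 in WT, 9.67 and 9.81 in HET and 9.47 and 9.33 in HOM.

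No core gene of a complex was called with the deletion. The differences between HOM and WT in FO and MZ cells, respectively, were -0.0032 and -0.21 for Ndufs1, 0.01 and -0.04 for Ndufs3, -0.14 and 0.01 for Ndufs7, and 0.01 and 0.34 for Ndufs8. Ndufv1 and Ndufv2, at the NADH end of complex I, had values of -0.07 and 0.07 and of -0.01 and 0.15. For Sdha they were -0.08 and -0.10, for Sdhb 0.03 and 0.11, for Sdhc -0.15 and -0.08 and for Sdhd -0.16 and 0.11. Cox4i1, Cox5a and Cox5b had 0.04 and 0.06, -0.05 and 0.06, and 0.0033 and 0.04. Atp5a1, Atp5b and Atp5c1 had 0.04 and 0.14, 0.19 and 0.28, and 0.0025 and 0.13. The SEs of these differences ran from 0.13 in Cox4i1 to 0.28 in Sdhc.

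Among the 83 tested genes of the other 6 mitochondrial lists, limma called none in HOM against WT in either cell type, and 3 in FO and 4 in MZ cells passed an unadjusted p of 0.05, where 6.97% and 6.08% of all tested genes did. Slc25a4 passed unadjusted in both, at 0.51 ± 0.18 in FO (limma adjusted p = 0.501) and 0.51 ± 0.18 in MZ (0.801), and was named for this after its values were seen.

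**Figure D5:**
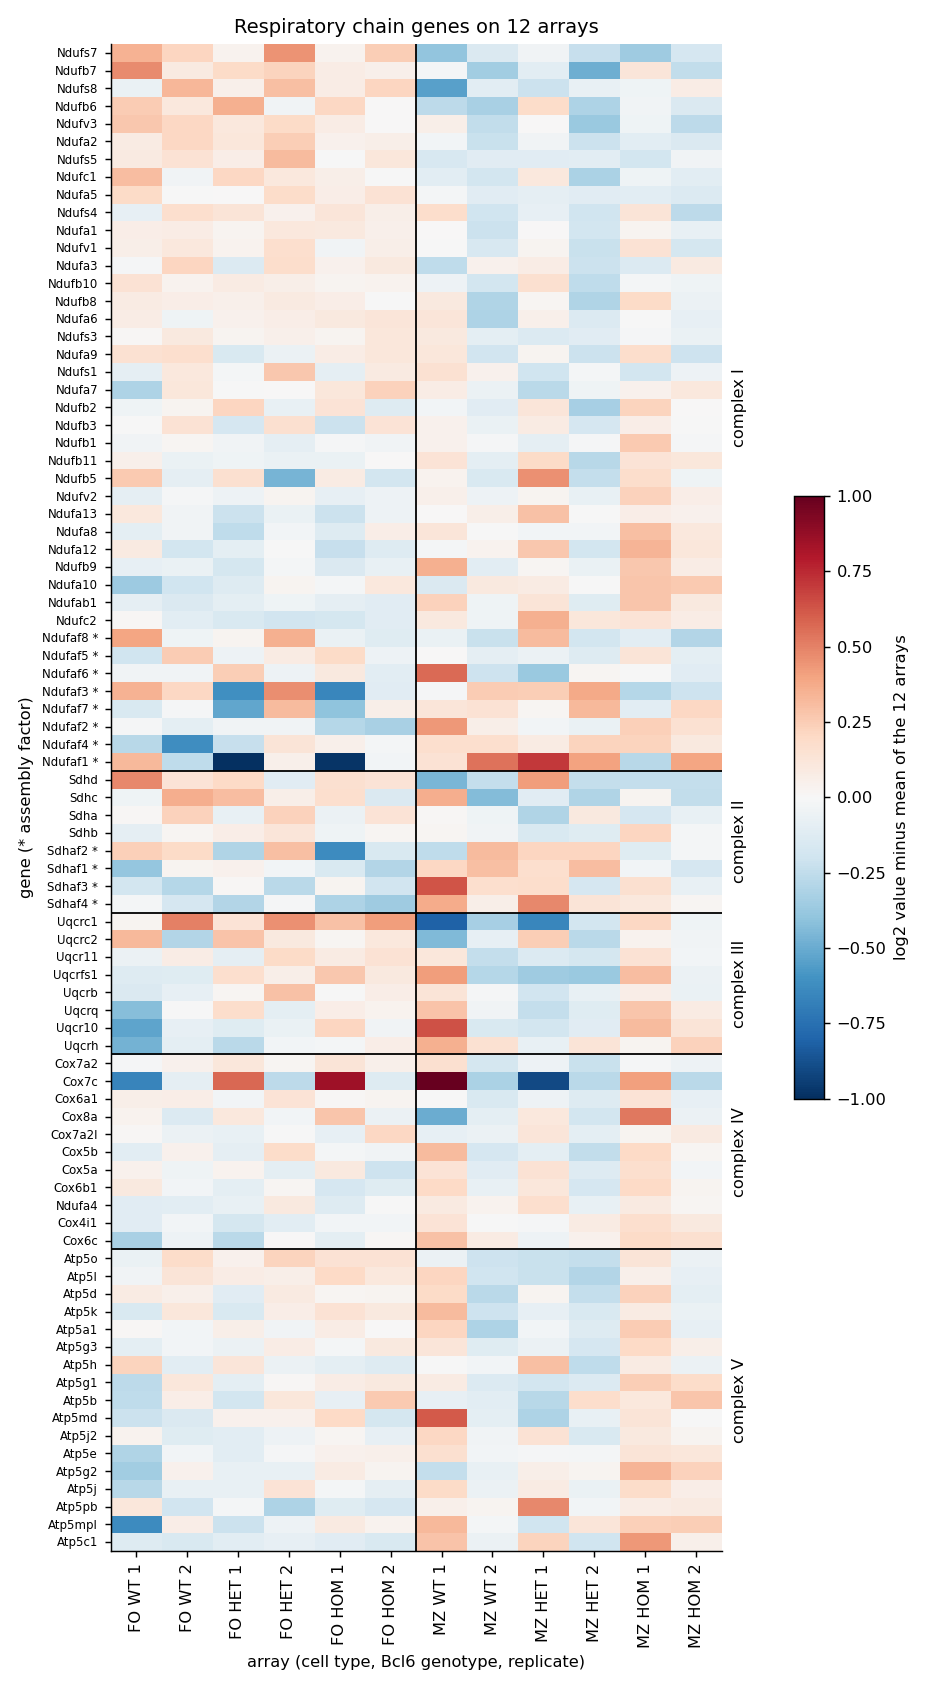
Heat map of the 85 genes on the 12 arrays, as the log2 value minus the gene's mean over all arrays, ordered by complex and by the marginal zone against follicular change; stars mark assembly factors. Ndufs7 and Ndufb7 at the top are lower on MZ arrays, and Cox7c varies most (1.96). The replicate 1 arrays of MZ are higher than replicate 2 for 60 to 68 of the 85 genes, a count not made over all tested genes.

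The arrays of a group differed in a pattern shared by many chain genes. In MZ cells replicate 1 was higher than replicate 2 for 66 of 85 genes in WT, 60 in HET and 68 in HOM, with a median difference of 0.156, 0.115 and 0.117. In FO cells the numbers were 36, 26 and 40, with medians of -0.0463, -0.0807 and -0.00442. The same count was not made over all tested genes. Their median deviation from the gene's mean was 0.0285 and -0.0605 on replicates 1 and 2 of MZ WT. It was -0.1108 and -0.0583 in MZ HET and -0.0939 and -0.0866 in MZ HOM. In FO WT, HET and HOM it was 0.0377 and 0.0991, 0.0296 and 0.1246, and 0.0624 and 0.0894. The MZ replicate 1 arrays also had a higher mean of the 8 measured macrophage and monocyte markers, 4.88 to 5.11 against 3.94 to 3.99 on the replicate 2 arrays, and 2 of the 8 markers stayed under 4 on every array. In FO cells these means were 4.33 to 4.57 on replicate 1 and 3.53 to 3.66 on replicate 2. The part of these markers in the chain genes' values was not tested.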

How the data were processed

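The authors deposited 12 Affymetrix arrays as log2 values of their probe sets. The submitters' processing notes name GCRMA, whose version is not given in the sources used here. Its background step depends on probe sequence and leaves unexpressed probe sets at a common minimum. Per the labels' protocols, total RNA was isolated by TRIZOL and labelled by 3' in vitro transcription, which makes readings depend on RNA integrity.

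A gene was represented by its single-symbol probe set with the highest mean, and the 9307 genes reaching a log2 value of 4 on 2 arrays were tested. Group means of the 6 groups were fitted in 1 model with limma 3.58.1 (lmFit, eBayes) in R 4.3.3. Two-sided p-values were Benjamini-Hochberg adjusted over all tested genes, threshold 0.05. The fit was tested on simulated data. Contrasts between MZ and FO treat the samples as independent, although the differences between replicates correlated between some groups.

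Named are all called genes, the extremes of each complex, core subunits, genes below the filter and up to 4 called genes of each other list. The genes, lists and complexes were chosen with earlier results of these data known. Complex and role came from general knowledge. The number of arrays limits the precision. Alternatives covered filter, probe set rule, moderation, array weights, scaling, arrays in the fit, replicate block and each array left out.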

Additional observations from a re-analysis of the deposited data

Results flagged for a closer look

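Each chain gene was checked within the 6 arrays of a cell type for an array far from the other 5, a check in which chance alone marks about 1 in 20 groups. Of 85 genes in 2 cell types, 2 values were marked, fewer than chance alone would mark. Atp5g2, of the ATP synthase c ring, read 11.68 on FO WT replicate 1, below the other FO arrays. Sdhd, a membrane anchor of complex II, read 10.58 on MZ HET replicate 1, above the other MZ arrays.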

How the results depend on the processing

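Between MZ and FO averaged over genotypes, 9 genes were called as deposited, 19 with no filter, 20 with the mean of all probe sets, 24 on a common median, 30 with quantile normalization and 14 with the replicate block, and 3 to 9 with single arrays left out. The count fell to 3, 4 or 5 without FO WT 1, either array of FO HET or FO HOM, MZ HET 2 or either array of MZ HOM. Of all tested genes 16.2% were called higher and 28.2% lower as deposited. The shares were 22.3% and 18.7% on a common median and 20.6% and 19.6% with quantile normalization. The median change was 0.14 on a common median, 0.204 with quantile normalization and -0.0368 to 0.0318 with arrays left out. In WT, 2 genes were called as deposited, 7 with no filter, 1 with the stricter filter, 0 with array weights or only WT arrays, 5 with quantile normalization and 5 with the replicate block, and 0 to 5 with arrays left out. The WT median was 0.105 and 0.207 on the 2 scalings and -0.0616 to 0.112 with arrays left out. In HET, none was called as deposited, 4 with no filter, 3 with the probe set mean, 1 with trend and robust moderation, 2 and 3 on the 2 scalings and 1 with the replicate block, with medians of 0.108 and 0.159 on the scalings and -0.141 to 0.0271 with arrays left out. In HOM, none was called as deposited, 2 with no filter, 1 with the probe set mean, 1 with array weights, 1 and 5 on the 2 scalings, 1 with the replicate block and 0 to 1 with arrays left out, with medians of 0.249 and 0.284. As deposited, 22.2% of all tested genes were called in WT, 23.2% in HET and 19.1% in HOM. The causes of the differences between alternatives were not tested, apart from the fewer or more genes and arrays that an alternative uses by construction.

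For the deletion, the median in MZ HOM ran from -0.0385 to 0.149 with arrays left out, that of the difference between cell types from -0.0261 to 0.157, and that of MZ HET from -0.125 to 0.0277 (0.0486 on a common median). Genes that turned sign were not called in the contrast except Pdhb (0.15 with the probe set mean). With arrays left out, Atp5md ran from -0.55 to 0.161 and Cox7c from -0.985 to 0.389 in MZ HOM, both positive without MZ WT 1 and Cox7c also without MZ HOM 2 (0.0429). In FO HOM, Atp5mpl ran from -0.000814 (without FO WT 1) to 0.699 and Uqcrc2 from -0.264 (without FO WT 2) to 0.353, with -0.00196 without FO HOM 2. Cox8a in MZ HOM turned to -0.0542 with the probe set mean, and between the cell types Cox7a2 turned to 0.0404 and 0.122 on the 2 scalings and Gabpa to 0.0392 with quantile normalization. Same-numbered arrays of 15 pairs of groups correlated at -0.255 to 0.768 in their deviations from the group mean, 8 of them over 0.1. The correlations were 0.452 to 0.768 among FO HET, FO HOM, MZ WT and MZ HOM, and 0.575 between FO WT and MZ HET. Some groups thus shared part of the difference between replicates, whose source was not tested. As the labels do not say that numbers pair the samples, the main fit had no pairing, and the replicate block was an alternative.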
